A study of Rattus norvegicus with 12 samples.

Results

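The 8 genes described here encode 6 serpins (Serpina3n, Serpinf1, Serpine2, Serpinb2, Serpinh1 and Serping1), the protease trap alpha-2-macroglobulin (A2m) and the serine protease homolog Prss35. They were chosen by name after earlier results of these arrays were known, among them the changes with osmolality and with time, so those changes are given for the 8 genes as a description. Each had 1 probe set with a single gene symbol, and all 8 were found among the 14506 named genes of the array. The study cultured primary inner medullary collecting duct (IMCD) cells of the kidney from male rats of strain SD, 7 weeks of age. All cultures spent 4 days at 640 mOsm/kg and then stayed at 640 or were moved to 300 for 24 h or for 48 h, with 3 arrays in each of the 4 groups. The 640 groups are therefore the controls, and a low osmolality is the treatment. Affymetrix Rat Gene 1.0 ST arrays gave the expression as log2 values from RMA, a method that corrects, normalizes and summarises the probes of a gene.

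Nothing in the labels ties the 3 arrays of a group to different animals or dishes, so p-values reflect the spread of these arrays alone, possibly a technical one. The short codes in the sample descriptions disagree with the titles on the osmolality of 2 groups, and the titles were followed. The median array value was 6.89 to 7.58 at 24 h and 6.81 to 6.97 at 48 h, so changes over time are given on arrays centred on their medians. A pair of 24 h arrays, replicate 3 at 640 and replicate 1 at 300, had medians of 6.90 and 6.89, below the other 24 h arrays. The labelled cell type was checked on defining markers. Cdh1, an epithelial cadherin, had group means of 11.75 to 12.24. The collecting duct water channel Aqp2 had 10.95 ± 0.74 (SD, n = 3) at 24 h and 11.51 ± 0.09 at 48 h at 640. At 300 it had 7.31 ± 0.09 and 7.10 ± 0.51. Markers of other cell types were read too. Group means were 9.43 to 10.45 for Col1a1 (fibroblast) and 7.02 to 7.86 for Pecam1 (endothelial). They were 5.96 to 6.41 for Pdgfra, 5.93 to 6.78 for Csf1r and 4.96 to 5.51 for Ptprc. The cultures are bulk samples in which fewer cells of a type and less RNA per cell cannot be told apart.

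Serpins are proteins of 1 shared fold, and most of them inhibit serine proteases: the protease cuts an exposed loop, and the serpin then changes shape and holds the enzyme in an inactive complex. Serpina3n is a secreted inhibitor of the antichymotrypsin group, Serpine2 (protease nexin) inhibits thrombin and urokinase, Serpinb2 is a urokinase inhibitor that stays largely inside cells, and Serping1 is the inhibitor of the first complement component. Serpinf1 (pigment epithelium-derived factor) and Serpinh1 (the collagen chaperone Hsp47) have the fold without inhibiting proteases. A2m traps proteases of several classes in a cage, and Prss35 resembles a trypsin-like protease but lacks the usual catalytic serine. The inner medulla of the kidney is normally hyperosmotic, and its cells answer changes in tonicity in part through the transcription factor Nfat5, which binds tonicity elements containing the letters TGGAAA.

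The 250 bases before the annotated gene start were available for 5 of the 8 genes (Serpina3n, Serpinf1, Serpine2, Serpinb2 and Serpinh1) from RefSeq on GRCr8. The 4 shown belong to Serpina3n, which was lower at low osmolality, to Serpinh1, whose arrays at 48 h did not overlap between the osmolalities, and to Serpinf1 and Serpine2, which were higher at 48 h than at 24 h. Capitals mark the letters TGGAAA or, on the other strand, their complement TTTCCA. Each sequence is written 5′ to 3′ on the strand of its gene.

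Serpina3n, chr6:129088142-129088391, plus strand: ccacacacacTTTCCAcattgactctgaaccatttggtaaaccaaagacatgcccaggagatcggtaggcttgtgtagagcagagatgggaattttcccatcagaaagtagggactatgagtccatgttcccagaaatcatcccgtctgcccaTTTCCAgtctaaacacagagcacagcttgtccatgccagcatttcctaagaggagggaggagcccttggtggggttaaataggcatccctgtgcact
Serpinh1, chr1:163062977-163063226, minus strand: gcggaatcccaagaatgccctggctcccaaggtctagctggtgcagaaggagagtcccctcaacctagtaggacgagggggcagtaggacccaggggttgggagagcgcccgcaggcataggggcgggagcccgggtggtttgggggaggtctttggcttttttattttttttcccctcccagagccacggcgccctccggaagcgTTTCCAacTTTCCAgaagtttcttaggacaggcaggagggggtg
Serpinf1, chr10:60760899-60761148, minus strand: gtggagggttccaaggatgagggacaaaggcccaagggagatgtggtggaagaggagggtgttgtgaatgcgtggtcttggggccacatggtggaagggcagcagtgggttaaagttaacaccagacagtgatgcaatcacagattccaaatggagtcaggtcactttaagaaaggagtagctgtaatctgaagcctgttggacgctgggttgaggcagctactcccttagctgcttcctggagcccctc
Serpine2, chr9:88637203-88637452, minus strand: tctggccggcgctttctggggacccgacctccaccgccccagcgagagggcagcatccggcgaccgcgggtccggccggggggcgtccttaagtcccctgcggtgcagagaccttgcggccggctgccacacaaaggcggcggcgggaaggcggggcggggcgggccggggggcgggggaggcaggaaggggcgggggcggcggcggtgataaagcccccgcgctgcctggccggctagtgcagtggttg

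The Serpina3n sequence held 2 such matches, which begin 240 and 97 bases before the start, and the Serpinh1 sequence held 2, at 44 and 36 bases. The Serpinb2 sequence, not shown, also held 2, and those of Serpinf1 and Serpine2 held 0. The same 6 letters, on either strand, were present in 19.7% of 33469 rat promoter sequences of this length. Serpina3n also had 1 match to TTCNNNGAA, the palindrome that Stat proteins bind, 123 bases before the start, and this pattern was in 7.67% of the sequences and in 0 of the other 4. The matches do not overlap each other, and they are descriptions of letters, with no binding data behind them.

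Serpina3n was lower at 300 than at 640 at both times. At 640 its log2 level was 11.16, 10.74 and 10.14 on the 3 arrays at 24 h and 11.02, 11.13 and 11.19 at 48 h. At 300 it read 7.01, 8.37 and 7.89 at 24 h and 8.43, 7.72 and 8.10 at 48 h. No array at 300 reached any array at 640. The change (300 minus 640) was -2.92 ± 0.33 (SE) at 24 h, or 7.58-fold lower, and -3.03 ± 0.33 at 48 h, or 8.19-fold lower. It was the fourth most negative of 14506 genes at 24 h and the seventh at 48 h.

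Prss35 was lower to a similar extent. Its level at 640 was 10.48, 10.28 and 10.004 at 24 h and 10.21, 9.78 and 10.67 at 48 h. At 300 it was 6.96, 7.69 and 7.76 at 24 h and 7.76, 7.06 and 7.43 at 48 h. The groups again did not overlap at either time. Its change was -2.78 ± 0.28 at 24 h (6.88-fold lower) and -2.80 ± 0.28 at 48 h (6.97-fold lower). The size of the change differed between the times by -0.02 ± 0.40 for Prss35 and by -0.11 ± 0.46 for Serpina3n, both with limma's adjusted p = 1.000; over all 14506 genes 0 passed for this difference, with 64 at an unadjusted p under 0.05. Of the lowest values, 7.01 for Serpina3n and 6.96 for Prss35 at 24 h and 300, and 10.14 and 10.004 at 24 h and 640, were on the pair of arrays with low medians. Without those arrays the changes at 24 h were -2.82 for Serpina3n and -2.65 for Prss35. With only the 24 h groups in the fit, Serpina3n did not pass at 24 h (limma's adjusted p = 0.191), while Prss35 did. Over time on centred arrays Serpina3n was at 0.85 at 640 and 0.76 at 300 (0.44 and 0.33 on the deposited values), without passing. Prss35 was at 0.38 at both, against -0.033 and -0.052 on the deposited values, where the direction turned.

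**Figure D1:**
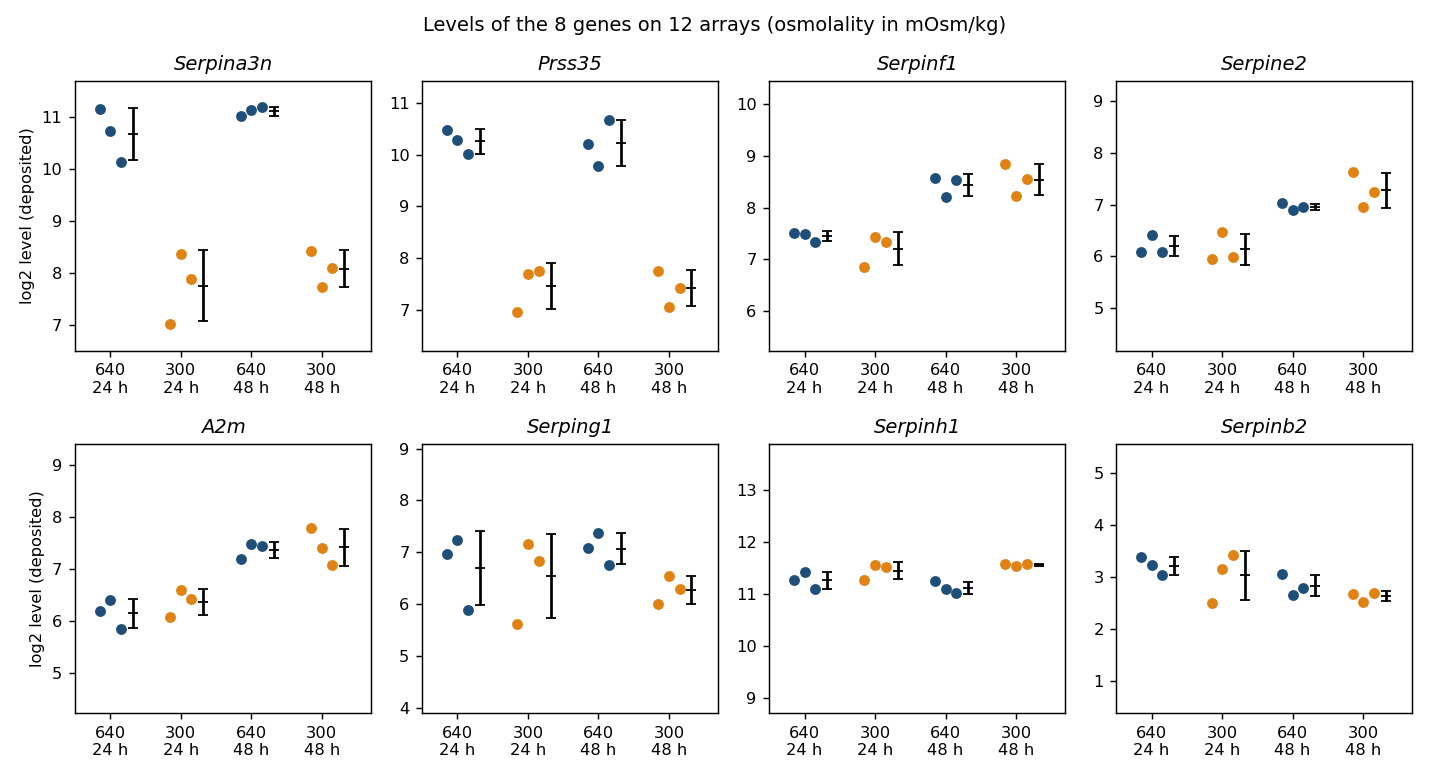
Log2 level (y axis, RMA) of the 8 genes in each of the 4 groups on the x axis (24 h or 48 h at 640 or 300 mOsm/kg); points are single arrays, and the bar beside them is the mean ± SD of 3. Serpina3n and Prss35 lie at 9.78 to 11.19 at 640 and at 6.96 to 8.43 at 300, while the other genes differ less between the osmolalities.

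In the model over all 14506 genes, Serpina3n and Prss35 were 2 of the 8 genes past limma's adjusted p of 0.05 at 24 h, both lower, where 0.0896% of all genes passed and 0.0758% were lower. At 48 h the same pair passed, where 0.717% of all genes passed and 0.545% were lower. The other 6 genes did not pass at either time. On centred arrays the same pair passed at both times, beside 0.655% of all genes at 24 h and 1.85% at 48 h. The contrast chose the genes, and nothing is read from these counts. The median change of the 8 was -0.17 at 24 h and -0.08 at 48 h, against -0.02 and 0.02 for all genes. Of 15 collecting duct and epithelial markers, 1 fell at 24 h (Aqp2, by 3.63) and 4 at 48 h (Aqp2, by 4.41, Aqp3, Avpr2 and Slc14a2), and 5 and 6 of the 15 were higher at 300. Their summed linear level, in multiples of the median gene of the array, was 197 to 276 at 640 and 185 to 270 at 300 at 24 h, and 245 to 307 and 229 to 281 at 48 h. Markers of the loop of Henle were lower too, with 1 of 6 higher at 24 h and 0 of 6 at 48 h on centred arrays. Of these the water channel Aqp1 fell at both times, by 1.98 and 2.48 (without replicate 1 at 640 its adjusted p at 24 h was 0.0823). The summed level of this list was 11.997 to 24.2 at 640 and 4.96 to 6.56 at 300 at 24 h, and 22.8 to 31.3 and 5.97 to 6.74 at 48 h. A linear sum weighs bright genes most. The median change of the list was smaller than that of Aqp1, at -0.60 at 24 h and -0.72 at 48 h on the deposited values. The summed level of 7 endothelial markers was 4.96 to 6.97 at 640 and 3.59 to 4.71 at 300 at 24 h, and 5.91 to 8.09 and 4.05 to 4.93 at 48 h. Of 11 fibroblast markers 6 were higher at each time, where 44.3% and 54.2% of all genes were. Postn rose by 1.22 at 48 h (limma's adjusted p = 0.00819, up to 0.0709 with 1 array left out). The 6 mesothelial and smooth muscle markers summed to 31.5 to 41.0 at 640 and 43.5 to 56.0 at 300 at 48 h. On centred arrays Fbln1 passed at both times and Cnn1 at 48 h, both higher. Csf1r, Emcn and Slc12a1 at 48 h and Avpr2 at 24 h passed lower there. The part of these cell types in the result was not tested.

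**Figure D2:**
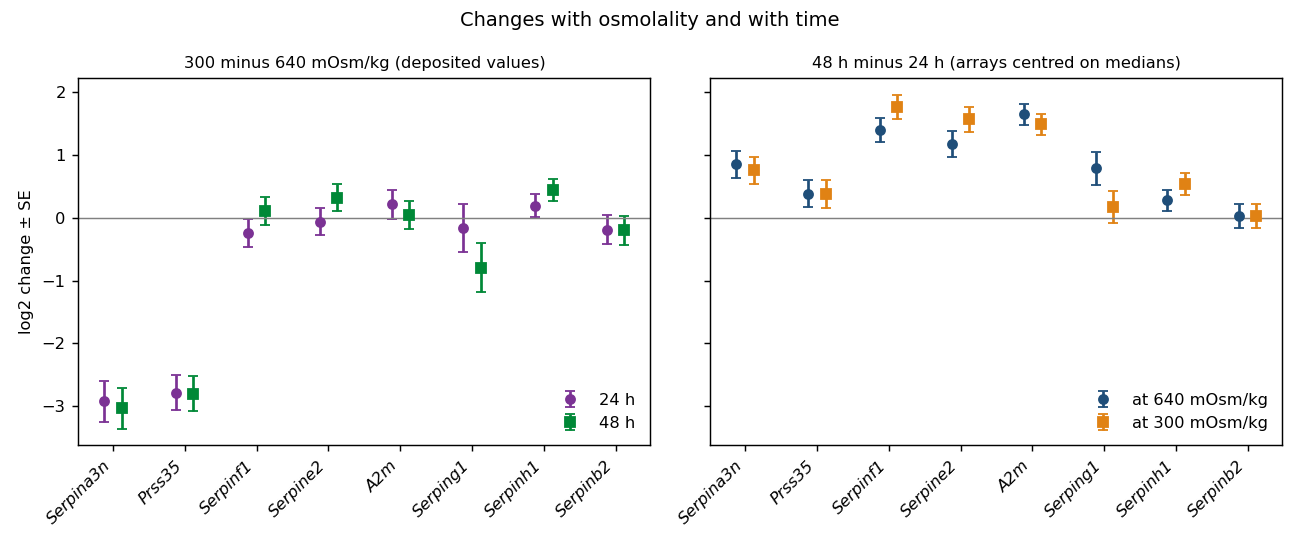
Log2 change (y axis) of the 8 genes (x axis). The left panel gives 300 minus 640 at 24 h and 48 h on deposited values. The right panel gives 48 h minus 24 h at each osmolality on centred arrays. Points are the changes and bars ± 1 SE from limma. Serpina3n and Prss35 are near -3 in both osmolality comparisons, and Serpinf1, Serpine2 and A2m are between 1.17 and 1.76 in both comparisons over time.

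Serpinf1, Serpine2 and A2m differed over time at both osmolalities. The level of Serpinf1 was 7.51, 7.49 and 7.34 at 24 h and 8.57, 8.20 and 8.52 at 48 h at 640. The arrays at 300 read 6.85, 7.44 and 7.33 at 24 h and 8.83, 8.23 and 8.55 at 48 h. On the arrays centred on their medians, the rise from 24 h to 48 h was 1.40 ± 0.19 (SE) at 640, or 2.64-fold, and 1.76 ± 0.19 at 300, or 3.39-fold. The arrays of the times did not overlap on either scale. Its change with osmolality was -0.24 ± 0.22 at 24 h and 0.10 ± 0.22 at 48 h.

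A2m was also higher at 48 h. Its level at 640 was 6.19, 6.399 and 5.85 at 24 h and 7.20, 7.48 and 7.44 at 48 h. The arrays at 300 read 6.08, 6.59 and 6.42 at 24 h and 7.78, 7.40 and 7.07 at 48 h. On centred arrays, A2m was higher at 48 h by 1.65 ± 0.17 at 640 (3.13-fold) and by 1.49 ± 0.17 at 300 (2.80-fold). The rise at 640 ranked second of 14506 genes. The change with osmolality was 0.22 ± 0.23 at 24 h and 0.04 ± 0.23 at 48 h, and the levels overlapped at both times on the deposited scale, although on centred arrays the 3 arrays at 300 lay above those at 640 at 24 h.

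Serpine2 was 6.09, 6.42 and 6.08 at 24 h and 7.02, 6.89 and 6.95 at 48 h at 640. At 300 it was 5.94, 6.47 and 6.00 at 24 h and 7.62, 6.96 and 7.24 at 48 h. On centred arrays the rise was 1.17 ± 0.20 at 640, or 2.26-fold, and 1.57 ± 0.20 at 300, or 2.97-fold. The changes with osmolality were -0.06 ± 0.22 at 24 h and 0.32 ± 0.22 at 48 h, and the arrays overlapped at both times.

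The scale of the arrays bears on these 3 genes. On the deposited values the median of all genes was lower at 48 h by -0.41 at 640 and by -0.38 at 300, and the rises of Serpinf1, Serpine2 and A2m were 0.98, 0.76 and 1.23 at 640 and 1.33, 1.14 and 1.05 at 300. On centred arrays 3 of the 8 genes passed limma's adjusted p of 0.05 at 640 (0.138% of all genes, all higher) and the same 3 at 300 (0.255% of all genes, 0.165% higher). On the deposited values 0 of 8 passed at either osmolality, where 0 of 14506 genes passed, with 4077 genes at an unadjusted p under 0.05 at 640 and 3369 at 300. The times did not overlap for 5 of the 8 genes at each osmolality on centred arrays, against 9.58% of all genes at 640 and 12.1% at 300. At 640 the call of Serpine2 was lost without any 1 of 5 arrays, all but replicate 3 at 24 h (limma's adjusted p = 0.0989 to 0.252), and that of Serpinf1 without replicate 1 at 48 h (0.0532).

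Markers of each cell type examined were mostly higher at 48 h on centred arrays, where 50.3% of all genes were higher at 640 and 58.6% at 300. All 11 fibroblast markers were higher at both osmolalities, and 3 rose at 640 (Pdgfrb, Col1a1 and Dcn) and 4 at 300 (the same 3 and Postn). Of the 11, Lum lay near the floor of the array, with group means of 2.39 to 2.78. Col1a1, the main collagen chain of fibroblasts, rose by 1.13 at 640 and by 1.07 at 300 (limma's adjusted p = 0.0387 and 0.0336). Leaving out any 1 array at 640 ended the calls of Col1a1 and Pdgfrb there. At 300 any 1 array ended that of Pdgfrb, replicate 2 or 3 at 24 h or 1 or 3 at 48 h that of Col1a1, and replicate 3 at 24 h or 2 at 48 h that of Postn (adjusted p up to 0.196, 0.238 and 0.0930), while Dcn passed each time. The summed level of the 11 fibroblast markers was 12.6 to 16.7 at 640 and 15.4 to 22.0 at 300 at 24 h, and 26.5 to 35.3 and 28.7 to 51.0 at 48 h. For macrophage markers 10 of 11 were higher at 640 and 9 of 11 at 300, with 0 past the threshold. At 640 and 300 the count was 13 and 11 of 15 for collecting duct and epithelial markers, 6 and 6 of 7 for endothelial, 6 and 6 of 6 for mesothelial and smooth muscle, and 5 and 5 of 6 for loop of Henle markers. Of these Cnn1, a smooth muscle gene, rose at 300. The levels of the defining markers Col1a1, Pdgfra, Ptprc and Csf1r come without a detection limit, so they do not settle which cells were present. The part of these markers in the result was not tested. On the deposited values 10 of 11 fibroblast markers were higher at 640 and 9 of 11 at 300, and macrophage markers 7 of 11 at both, with 0 past the threshold. There collecting duct markers were higher for 7 and 4 of 15, endothelial for 1 and 0 of 7, smooth muscle for 2 and 4 of 6, and loop of Henle for 1 and 0 of 6.

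**Figure D3:**
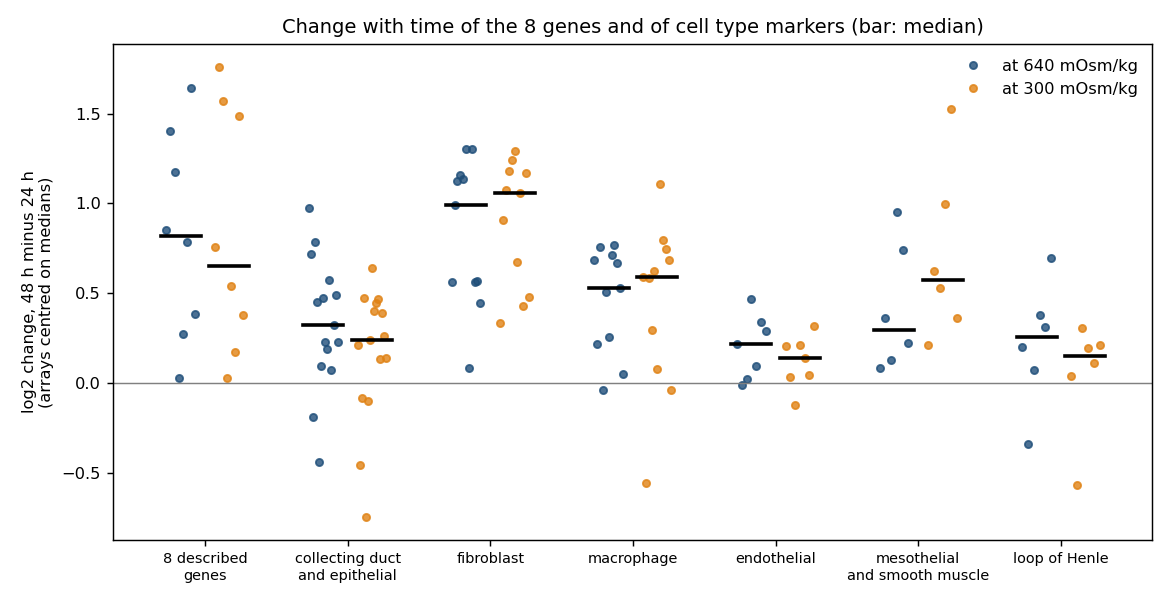
Log2 change from 24 h to 48 h on centred arrays (y axis) of the 8 genes and of the genes on 6 cell type marker lists (x axis), at 640 (blue) and 300 (orange) mOsm/kg; each point is a gene and each bar a list's median. All 11 fibroblast markers lie above 0, with medians of 0.99 at 640 and 1.06 at 300, beside 0.82 and 0.65 for the 8 genes.

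Serping1 showed its largest difference with osmolality at 48 h. Its level at 48 h was 7.09, 7.37 and 6.76 at 640 and 6.00, 6.54 and 6.30 at 300, with no overlap. The change was -0.79 ± 0.39 (1.73-fold lower), with limma's adjusted p = 1.000 and an unadjusted p = 0.0587. At 24 h the arrays read 6.97, 7.25 and 5.89 at 640 and 5.62, 7.17 and 6.83 at 300. The lowest array of each group, 5.89 and 5.62, was that of the low-median pair, and the change was -0.16 ± 0.39. Its change over time on centred arrays was 0.79 at 640 and 0.17 at 300, against 0.37 and -0.26 on the deposited values, so the direction at 300 turned with the scale. Macrophage marker sums at 48 h were 13.0 to 17.5 at 640 and 10.3 to 13.5 at 300, which overlap. Endothelial sums were 5.91 to 8.09 and 4.05 to 4.93, and loop of Henle sums 22.8 to 31.3 and 5.97 to 6.74. Mesothelial and smooth muscle sums went the other way, from 31.5 to 41.0 at 640 and from 43.5 to 56.0 at 300. The part of these cell types in the values of Serping1 was not tested.

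Serpinh1, the collagen chaperone, was among the brighter genes of the array, above 96.2% to 98.4% of genes. At 640 its level was 11.28, 11.42 and 11.09 at 24 h and 11.25, 11.09 and 11.02 at 48 h. At 300 it was 11.26, 11.57 and 11.52 at 24 h and 11.57, 11.54 and 11.58 at 48 h. The 48 h arrays did not overlap, and the change there was 0.44 ± 0.18, with limma's adjusted p = 0.800. At 24 h it was 0.19 ± 0.18, and over time on centred arrays 0.28 at 640 and 0.54 at 300, against -0.14 and 0.11 on the deposited values, so the direction at 640 turned with the scale. At 48 h the osmolalities did not overlap for 4 of the 8 genes (Serpina3n, Prss35, Serping1 and Serpinh1), against 13.8% of all genes, and at 24 h for 2 of 8, against 4.27%. On centred arrays the counts were 3 of 8 at 24 h, A2m included, against 8.56%, and 4 of 8 at 48 h, against 14.8%.

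Serpinb2 lay near the floor of the array. Its level was 3.38, 3.24 and 3.04 at 24 h and 3.06, 2.65 and 2.79 at 48 h at 640. The arrays at 300 read 2.51, 3.16 and 3.43 at 24 h and 2.68, 2.52 and 2.70 at 48 h. Only 1.90% to 6.83% of genes were dimmer on any array, and the arrays give no detection limit, so whether it was above background is unknown. The changes were -0.19 at 24 h, -0.20 at 48 h and, over time on centred arrays, 0.03 at both osmolalities. On the deposited values Serpinb2 was at -0.39 over time at 640 and -0.40 at 300, the other sign.

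The other genes of the families were counted on lists set together with the tests. Of 30 other serpins measured, 0 passed limma's adjusted p of 0.05 at 24 h and 0 at 48 h, with 2 at an unadjusted p under 0.05 at each time. Of all 14506 genes 2.90% had such a p at 24 h and 4.74% at 48 h, the background for the counts of each list with osmolality. Their median change was -0.07 at 24 h and 0.01 at 48 h. The largest was Serpina1, the alpha-1-antitrypsin gene, at 1.12 ± 0.26 at 24 h (limma's adjusted p = 0.216), and on centred arrays its value passed with 1.11 (adjusted p = 0.00914). Serpinb9, an inhibitor of granzyme B, differed by 0.82 and 0.86. The lowest of the 30 was Serpina10, at -0.64 at 24 h and -0.53 at 48 h. Serpinb1a was at 0.59 at 48 h. Over time on centred arrays 0 of 30 passed at either osmolality, with 3 at an unadjusted p under 0.05 at each, where 6.58% of all genes had one at 640 and 7.62% at 300. The next serpins along the chromosome from Serpina3n, Serpina3l and Serpina3c, differed by -0.24 and 0.09 at 24 h and by -0.28 and -0.05 at 48 h. Of the genes next to Prss35, Me1 differed by -0.52 at 24 h and by -1.04 at 48 h, where it passed (limma's adjusted p = 0.0353). Snap91, on the other side, differed by 0.13 and 0.18.

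**Figure D4:**
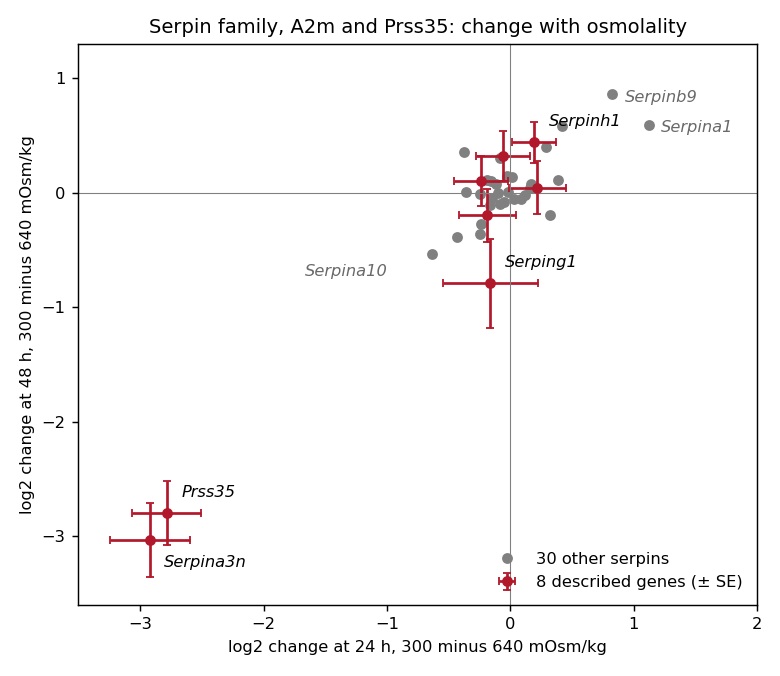
Log2 change with osmolality (300 minus 640) at 24 h (x axis) against 48 h (y axis) for the 30 other serpins (grey) and the 8 described genes (red, bars ± 1 SE). Serpina3n and Prss35 lie near -3 on both axes, apart from the 30 grey serpins, whose median is -0.07 at 24 h and 0.01 at 48 h.

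Of the alpha-macroglobulin family and its receptor, 6 of 12 genes were measured, and 0 passed at 24 h or 48 h (1 and 2 at an unadjusted p under 0.05). C3, the central complement protein and a relative of A2m, was at 1.17 ± 0.24 at 24 h and 0.82 ± 0.24 at 48 h (limma's adjusted p = 0.111 and 0.250), and on centred arrays both values passed (0.00412 and 0.0145). Over time 0 of 6 passed at either osmolality, and 0 had an unadjusted p under 0.05. Of the 23 measured complement genes 0 passed with osmolality (1 and 4 at an unadjusted p under 0.05), and C1qa, a part of the first component that Serping1 inhibits, rose over time at 300 by 1.04 (adjusted p = 0.0319; up to 0.179 with 1 array left out, and past the threshold only without replicate 1 at 24 h).

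The list of surface and pericellular serine proteases also held receptors, such as Plaur and F2r, and the cofactor F3. Of its 37 measured genes, 0 passed at 24 h (4 at an unadjusted p under 0.05) and 1 fell at 48 h. That was Tmprss2, a membrane-bound trypsin-like protease, at -1.07 ± 0.23 at 24 h and -1.76 ± 0.23 at 48 h (limma's adjusted p = 0.168 and 0.00125). On centred arrays Tmprss2 (adjusted p = 0.0201) and Dpp4, a surface peptidase that was higher by 1.00 (0.0350), passed at 24 h. At 48 h Tmprss2 passed there again with F3, the tissue factor gene, higher by 0.90 (0.0110), and Plau, urokinase, at -0.88 (0.0210). Of 27 other extracellular protease inhibitors 0 passed at either time, with 1 at an unadjusted p under 0.05 at each, and Wfdc2 was at 0.67 and 1.10 (adjusted p = 1.000 and 0.216). On centred arrays Wfdc2 passed at 48 h, at 1.11 (adjusted p = 0.0113).

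Among 26 measured genes of collagen making and folding, the pathway of Serpinh1, 0 passed at 24 h and 1 fell at 48 h. It was P3h2, a prolyl hydroxylase of collagen, at -1.14 ± 0.26 and -1.71 ± 0.26 (limma's adjusted p = 0.204 and 0.00342). On centred arrays P3h2 passed at both times (0.0237 and 0.000311). Of 34 genes of the acute phase and the Stat3 pathway, which includes known regulators of Serpina3n in other tissues, 0 passed with osmolality (3 and 4 at an unadjusted p under 0.05). Lifr, a receptor of that pathway, was at -0.87 and -1.10 (adjusted p = 0.531 and 0.0578), and passed on centred arrays (0.0241 and 0.00153). Il11 was higher, at 0.63 at 24 h and 0.88 at 48 h (limma's adjusted p = 0.145 at 48 h). Of the 34 genes, 20 were higher at 300 at 24 h and 19 at 48 h. The gene Fgg, a fibrinogen chain, rose over time at 300 by 0.87 (adjusted p = 0.0336; 0.0581 to 0.212 with any 1 array left out). On centred arrays 23 of 26 collagen genes were higher at 48 h at each osmolality, where 50.3% and 58.6% of all genes were. Col1a1 was the 1 past the threshold in both. On the deposited values 9 of 26 were higher at 640 and 7 at 300, with 0 past the threshold. There 4.82% of all genes were higher at 640 and 5.89% at 300. Over time on centred arrays 0 of 37 genes of the protease list passed at 640 and 0 at 300 (3 and 1 at an unadjusted p under 0.05). Of 27 inhibitors 0 passed at each (3 and 0 at such a p). At 640, 0 of 23 complement genes (7) and 0 of 34 acute phase genes (7) passed. Of all genes 6.58% had such a p at 640 and 7.62% at 300.

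Across the 12 centred arrays the genes most like each member were compared by Pearson's r over 14300 genes, as a description in which all points share the 4 groups. Serpina3n was most like Alox15b (r = 0.99), Muc1 (0.98) and Rasl10a (0.98). Prss35 was most like Rasl10a (0.98), Aqp2 (0.98) and Tgfbr3 (0.98). Serpinf1 was most like Dcn (0.97), Pdgfrb (0.97) and Col3a1 (0.95), and A2m was most like Pdgfrb (0.97), Pcolce (0.96) and Dcn (0.96). Serpine2 had Ctsd (0.97), Klhl22 (0.96) and Bmf (0.95) as its most alike genes. Serping1 was most like Pla2g4a (0.95), Gjb5 (0.94) and Extl1 (0.93), and Serpinh1 was most like Rsph9 (0.95), Tuba1a (0.95) and Tpm2 (0.95). For the dim Serpinb2 the highest r was 0.91, with Tsnax. Among the members, Serpina3n and Prss35 had r = 0.98 over the 12 arrays and 0.42 within groups, and Serpinf1 and Serpine2 had 0.97 and 0.76. A2m had 0.95 over the arrays with each of Serpinf1 and Serpine2, and 0.19 and 0.50 within groups. The reverse held for Serpinf1 and Prss35, with 0.20 over the arrays and 0.74 within groups.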

How the data were processed

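The data are 12 Affymetrix Rat Gene 1.0 ST arrays of total RNA. The authors deposited log2 expression values per probe set, made with RMA in Affymetrix Power Tools per the submitters' processing notes; no version of either was given in the labels. The platform's gene table gives 15310 of 27596 probe sets a single symbol, 323 more than 1, and leaves 11963 unlisted. The probe set with the greatest mean stood for its gene, giving 14506 genes. Changes were fitted by limma's lmFit and eBayes (limma 3.58.1, R 4.3.3, 1 mean per group, 8 residual degrees of freedom). Benjamini-Hochberg adjustment ran over all genes, with a threshold of 0.05. The fit was tested on simulated data with independent noise for each gene. Those data held no shifts of whole arrays, so the test does not cover calls under such shifts. Osmolality changes used the deposited values and time changes the arrays centred on their medians. The number of arrays limits the precision. Named genes were drawn from the 8 members, the called genes of each list (up to 6, or the 2 with the smallest p), the 3 most alike genes per member and defining markers. Serpinb9, chromosome neighbours and cell type markers were named besides. Members and lists were chosen with earlier results of these data known. Promoter sequences came from RefSeq. Alternatives were another scale between arrays, a dim filter, probe set means, variance moderation, the groups fitted, the replicate number and each array left out. A background alternative could not be run because no probe intensities were used.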

Additional observations from a re-analysis of the deposited data

How the results depend on the processing

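The values of Serpina3n and Prss35 kept their sign under every alternative run, from -3.23 to -2.55 and from -2.93 to -2.53 at 24 h, and from -3.21 to -2.85 and from -3.02 to -2.58 at 48 h. With only the compared groups in the fit, 1 of the 8 genes passed at 24 h (Prss35; Serpina3n had limma's adjusted p = 0.191), with 3 genes in all, and 217 at 48 h. Centring the arrays for osmolality gave 95 and 269 genes and cyclic loess 98 and 304, against 13 and 104, with 1 other serpin, Serpina1, at 24 h under both. For the difference between times, the counts were 4, 2 and, with trended and robust moderation, 1, against 0. On the deposited values 0 genes and 0 of the 8 passed over time at either osmolality, against 20 and 37 genes. Among the few genes named per list, the changes over time of Serpinb3 (-0.021) and Lrpap1 (-0.18) turned over at 640. At 300 those of Lrpap1 (-0.011), Spink8 (-0.097) and Spint1 (-0.093) did, and none had passed. Over the whole lists more genes turned. At 640, 15 of 30 other serpins were higher on centred arrays and 2 on the deposited values. The counts were 25 and 5 for 37 genes of the protease list and 12 and 1 for 27 inhibitors. Of the 8 genes, the time values of Serpinh1 at 640, Serping1 at 300, and Prss35 and Serpinb2 at both osmolalities also turned. Among the defining markers, Aqp2 and Pdgfra turned at 300 (-0.22 and -0.099). Cdh1 (-0.34 and -0.30) and Pecam1 (-0.20 and -0.23) turned at 640 and at 300, and none of these had passed either.

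Replicate numbers did not pair the arrays. Correlations between the osmolalities were taken on what was left of each array after subtracting each gene's group mean. For same-numbered arrays they were -0.12, 0.84 and -0.21 at 24 h and -0.23, 0.80 and -0.22 at 48 h. What is left sums to 0 within a group, so some negative values are forced, and they do not mean that whole arrays were unlike. Replicate 1 at 640 correlated best with replicate 3 at 300 (0.58 and 0.63), and replicate 3 at 640 with replicate 1 at 300 (0.83 and 0.78), a hint from the data, not the design, and no crossed block was fitted. With the replicate block on the numbers as labelled, 22 genes passed at 24 h, 35 and 92 over time at 640 and 300, and 2 for the difference. Leaving out each array gave 4 to 24 genes at 24 h, 51 to 66 at 48 h, 6 to 15 and 7 to 38 over time, and 0 to 3 for the difference, with 0 to 1 other serpins at 24 h. Of the 8 genes, 1 to 3 passed over time at 640: without replicate 1 of the 48 h group at 640 it was A2m, and Serpine2 was lost in 5 such fits. Leaving out the pair of 24 h arrays with low medians, an alternative chosen after seeing the data, gave 20 and 250 genes for osmolality at 24 h and 48 h, 34 and 219 over time at 640 and 300, and 1 for the difference, and 3 other serpins over time at 300 (Serpinb10, Serpinb12 and Serpind1). The cause of these moves was not tested.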
